A study of Mus musculus with 346 samples.

Results

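Laminin chains were followed in single cells of the mouse mammary gland across post-natal development. The genes described are the 5 alpha chains Lama1, Lama2, Lama3, Lama4 and Lama5, the 3 beta chains Lamb1, Lamb2 and Lamb3, and the gamma chain Lamc1. They are 9 of the 25141 genes analysed and were picked from the count files by Entrez gene number.

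Cells came from untreated female mice of the inbred FVB/NJ strain at pre-puberty (2 weeks of age, 144 cells), puberty (4.7 to 4.9 weeks, 136 cells) and adulthood (10 weeks, 66 cells). They had been sorted as epithelium from cells negative for the blood and endothelial markers Ter119, CD45 and CD31, and each was lysed in its own chamber of a Fluidigm C1 chip, where its polyadenylated RNA was turned into full-length cDNA. Glands of several mice were combined at each stage and no label ties a cell to a mouse, so each stage is a single sample. No stage was tested against another, and no cell stands for a replicate of its stage. All intervals are 95% intervals, exact Poisson for levels and exact Clopper-Pearson for shares of cells, and they cover counting error only, not differences between mice, sorts or chips. Where a count is 0, the limit given is what 3 counts would amount to.

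Of the 346 cells, 279 passed the coverage filter, of which 116 were pre-pubertal, 119 pubertal and 44 adult. Their depth over the analysed genes ran from 109387 to 1189105 reads, and the medians of the stages were 296616, 574894 and 334741. A read here is a counted read pair. Levels are counts per 1000000 (CPM) of the summed reads of a stage, and genes are compared with each other only as RPKM, which divides CPM by gene length in kilobases. Shares are the percent of cells with a read after each cell was thinned at random to 100000 reads, because deeper cells detect more genes. Most pre-pubertal cells carried few markers of the sorted epithelium, with at least 5 of 10 basal markers in 20 of the 116 cells and at least 5 of 10 luminal markers in 2. Their median was 0 for the luminal and 2 for the basal list, but of 16 markers of Schwann cells, the glia of peripheral nerves, a median of 10 (lowest 3, highest 14). The summed Schwann markers ranged from 572 to 75659 CPM in single pre-pubertal cells, from 0 to 135872 CPM at puberty and from 0 to 5285 CPM in the adult, with medians of 11386, 122 and 103 CPM. All 16 were read at pre-puberty, Ngfr had no read at puberty, and Gfra3, Fabp7 and Dhh were among those with none in the adult. Of 10 fibroblast markers the pre-pubertal cells had a median of 3 (lowest 1, highest 10), against 0 at the later stages. At least 5 Schwann markers were present in 115 of 116 pre-pubertal cells, so levels at pre-puberty and the presence of these markers cannot be told apart.

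Laminins are large glycoproteins of the basement membrane, each built from an alpha, a beta and a gamma chain that join into a cross-shaped trimer inside the cell before secretion. The alpha chain carries the globular domains that integrins and dystroglycan bind, while the short arms polymerise with each other and, through the gamma 1 chain, bind nidogen. Trimers are named by their chains, so laminin-111 holds alpha 1, beta 1 and gamma 1. In the mammary gland a laminin-rich basement membrane lies under the myoepithelial layer, and in peripheral nerve Schwann cells are surrounded by a basement membrane whose main laminin holds alpha 2.

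The files identify the chains by Entrez numbers 16772 (Lama1), 16773 (Lama2), 16774 (Lama3), 16775 (Lama4), 16776 (Lama5), 16777 (Lamb1), 16779 (Lamb2), 16780 (Lamb3) and 226519 (Lamc1). On GRCm38.p6, Lama2 spans chr10:26981285-27617191 and Lama4 chr10:38965515-39110188. Lamb1 spans chr12:31265146-31329644, Lamc1 chr1:153218922-153332786 and Lamb3 chr1:193294353-193343878. Lama1 spans chr17:67697127-67822645, Lama5 chr2:180176373-180225904 and Lamb2 chr9:108479847-108490530.

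Promoter windows are shown for an alpha and a beta chain that were high at pre-puberty (Lama2, Lamb1) and for an alpha and a beta chain that were low there (Lama5, Lamb3), so that the letters near their starts can be set side by side. Each window has 250 bases before and 50 after a RefSeq transcript start, and windows of 5 of the 9 genes were taken. The Lama2 window is chr10:27616893-27617192 on the minus strand, the Lamb1 window chr12:31265043-31265342 on the plus strand, the Lama5 window chr2:180225810-180226109 on the minus strand and the first of 2 Lamb3 windows chr1:193301744-193302043 on the plus strand. The sequences are from RefSeq on GRCm38.p6, read 5′ to 3′, with capitals for GGGCGG or its reverse complement (the GC box) and for CCAAT or its reverse complement.
Lama2: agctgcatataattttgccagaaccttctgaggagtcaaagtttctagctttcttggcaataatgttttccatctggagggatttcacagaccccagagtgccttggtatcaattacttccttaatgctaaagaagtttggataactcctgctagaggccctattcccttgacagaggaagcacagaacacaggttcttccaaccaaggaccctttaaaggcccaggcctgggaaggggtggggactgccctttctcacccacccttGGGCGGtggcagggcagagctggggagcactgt
Lamb1: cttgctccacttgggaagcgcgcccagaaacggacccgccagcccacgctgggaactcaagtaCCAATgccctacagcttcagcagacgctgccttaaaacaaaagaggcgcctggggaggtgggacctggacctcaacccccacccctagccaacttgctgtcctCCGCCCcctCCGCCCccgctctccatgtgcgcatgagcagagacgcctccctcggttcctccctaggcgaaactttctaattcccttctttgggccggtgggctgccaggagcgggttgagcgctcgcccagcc
Lama5: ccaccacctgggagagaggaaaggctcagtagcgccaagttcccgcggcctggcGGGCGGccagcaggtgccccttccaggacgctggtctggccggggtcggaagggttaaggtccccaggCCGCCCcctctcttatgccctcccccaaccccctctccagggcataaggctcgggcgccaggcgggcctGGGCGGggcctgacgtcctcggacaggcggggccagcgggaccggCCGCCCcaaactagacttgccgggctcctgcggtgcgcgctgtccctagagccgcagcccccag
Lamb3: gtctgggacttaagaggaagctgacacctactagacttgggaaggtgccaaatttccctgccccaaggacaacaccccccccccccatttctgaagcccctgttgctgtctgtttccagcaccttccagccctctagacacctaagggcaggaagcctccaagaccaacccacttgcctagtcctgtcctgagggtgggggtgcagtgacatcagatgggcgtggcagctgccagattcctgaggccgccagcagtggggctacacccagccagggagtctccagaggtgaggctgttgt
GGGCGG, searched on both strands, was found 1 time in the Lama2 window, 2 times in Lamb1, 4 times in Lama5 and 0 times in Lamb3, and 35.7% of all 32851 windows hold it. CCAAT was found 1 time, in Lamb1, against 37.4% of all windows. TATAAA (13.6% of windows), TGANTCA (7.81%) and ACAAAG (18.7%), on both strands, were in none of the 4 windows shown. The share of G and C was 50.3% in the Lama2 window, 63.7% in Lamb1, 72.7% in Lama5 and 59.3% in Lamb3, against a median of 52.7% over all windows. The Lamb3 window lies inside the span given for that gene, at the transcript start that RefSeq lists.

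Lama2 and Lama4 were the alpha chains of the pre-pubertal cells. Lama2, the alpha chain of muscle and peripheral nerve basement membranes, came to 450.5 CPM (444 to 457) at pre-puberty, fell to 9.58 CPM (8.86 to 10.3) at puberty and was 17.9 CPM (16.1 to 19.9) in the adult. A thinned cell had a Lama2 read in 97 of 116 cases before puberty (83.6%, 75.6 to 89.8), in 9 of 119 at puberty (7.56%, 3.52 to 13.9) and in 3 of 44 in adulthood (6.82%, 1.43 to 18.7). Lama4, a short alpha chain of vessel walls, nerve and fat, stood at 394.7 CPM (388.6 to 400.8), 24.9 CPM (23.7 to 26.1) and 5.24 CPM (4.25 to 6.39) at the 3 stages. It was read in 81.0% (72.7 to 87.7), 5.88% (2.40 to 11.7) and 9.09% (2.53 to 21.7) of cells. Both genes were thus spread over most pre-pubertal cells, with medians of 214 and 191 CPM per cell, while the median cell of the later stages had no read of either.

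What remained of Lama2 and Lama4 after pre-puberty lay in few cells. At puberty, cell 103 held 63.3% of the Lama4 reads and 33.2% of the Lama2 reads, and carried 10 of 10 fibroblast markers and no keratin above the threshold. The 9 pubertal cells with at least 5 fibroblast markers had 98 CPM of Lama2 and 302 CPM of Lama4, against 2.17 and 1.61 CPM in the other 110. In the adult, cell 5 held 78.6% of the Lama4 reads and carried 8 of 10 endothelial and 4 of 7 pericyte markers. Adult cell 58, with 10 of 10 basal markers, held 69.0% of the Lama2 reads, and without it the adult level was 5.81 CPM. The part of these marker-bearing cells in the stage levels was not tested beyond leaving them out.

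Lama1, the alpha chain of embryonic and epithelial laminin-111, was low before puberty outside a single cell. Its level was 16.2 CPM (15.0 to 17.5) at pre-puberty, 80.3 CPM (78.2 to 82.4) at puberty and 97.2 CPM (92.8 to 101.7) in the adult. A single pre-pubertal cell, number 119 with 9 of 10 basal markers, held 88.5% of the reads of its stage, and 1.88 CPM remained without it. In the adult, cell 22, with 10 of 10 basal markers, held 69.8%, and 29.9 CPM remained. Only at puberty was Lama1 spread over many cells, with a read in 35 of 119 (29.4%, 21.4 to 38.5), against 5 of 116 at pre-puberty (4.31%, 1.41 to 9.77) and 6 of 44 adult cells (13.6%, 5.17 to 27.4).

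Lama3, an alpha chain that anchors epithelia to the basement membrane, was 12.9 CPM (11.8 to 14.1) at pre-puberty, 40.4 CPM (38.9 to 41.9) at puberty and 302.1 CPM (294.2 to 310.1) in the adult. Its share of cells followed the same order, 18.1% (11.6 to 26.3), 26.9% (19.2 to 35.8) and 52.3% (36.7 to 67.5). Adult cell 28 alone held 41.6% of the adult reads, and 183.8 CPM remained without it. The adult level of Lama3 was thus above the pubertal one with or without its top cell, although the median adult cell had only 4.81 CPM.

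Lama5, the alpha chain of laminin-511 and a broad epithelial and vascular chain, was 21.6 CPM (20.2 to 23.1) at pre-puberty, 105.1 CPM (102.7 to 107.6) at puberty and 34.5 CPM (31.9 to 37.3) in the adult. The share of cells gave another order, 25.9% (18.2 to 34.8), 39.5% (30.7 to 48.9) and 59.1% (43.2 to 73.7). Pubertal cell 50 had 17608 CPM of Lama5 and held 52.6% of the pubertal reads, and 50.0 CPM remained without it. In the adult no cell exceeded 382 CPM. The adult was therefore the stage with the highest share of cells with a read and puberty the stage with the highest pooled level.

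**Figure D1:**
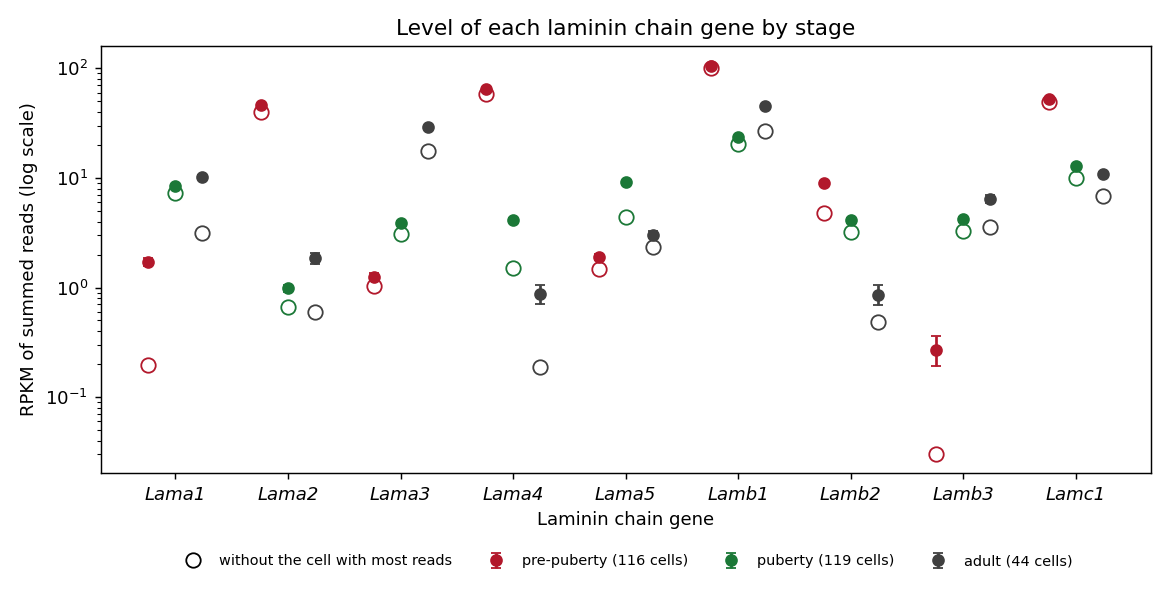
RPKM of the summed reads of each laminin chain gene (vertical axis, log scale) at pre-puberty (red, 116 cells), puberty (green, 119) and adulthood (grey, 44). Filled points carry exact 95% Poisson intervals, and open circles leave out the cell with most reads of that gene. Lama2, Lama4, Lamb1 and Lamc1 are highest at pre-puberty and move little without their top cell, while adult Lama1 falls from 10.2 to 3.14 RPKM.

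Among the beta chains, Lamb1, the partner in most laminins of early tissues, was the most abundant at every stage. It stood at 607.8 CPM (600.2 to 615.4) at pre-puberty, 135.3 CPM (132.6 to 138.1) at puberty and 261.7 CPM (254.4 to 269.1) in the adult, and was read in 94.0% (88.0 to 97.5), 33.6% (25.2 to 42.9) and 40.9% (26.3 to 56.8) of cells. As RPKM it made up 91.9%, 73.8% and 86.1% of the 3 beta chains. Adult cell 63, with 7 of 10 basal markers, held 42.6% of the adult reads, and 154.2 CPM remained without it. Lamb1 was thus read in nearly every thinned pre-pubertal cell, and in fewer than 50% of the thinned later ones.

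Lamb2, the beta chain of mature muscle, kidney and vessel laminins, was 50.7 CPM (48.5 to 52.9) at pre-puberty, 23.1 CPM (22.0 to 24.3) at puberty and 4.81 CPM (3.87 to 5.92) in the adult. The shares were 25.0% (17.4 to 33.9), 21.9% (14.8 to 30.4) and 13.6% (5.17 to 27.4), with intervals that overlap. Pre-pubertal cell 139, which was also the top cell for Lama2, held 47.6% of the Lamb2 reads and had 11 of 16 Schwann markers, and 26.9 CPM remained without it.

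Lamb3, the beta chain that joins Lama3 in epithelial anchorage, was all but missing before puberty. It had 44 reads in 116 pre-pubertal cells, 1.08 CPM (0.785 to 1.45), of which 88.6% lay in cell 133, a cell with 10 of 10 basal markers. Levels were 17.0 CPM (16.1 to 18.0) at puberty and 26.2 CPM (23.9 to 28.6) in the adult, and the shares were 2.59% (0.536 to 7.37), 22.7% (15.5 to 31.3) and 15.9% (6.64 to 30.1). The pubertal and adult shares overlap within counting error.

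Lamc1, the gamma chain shared by most laminins, was 401.4 CPM (395.2 to 407.6) at pre-puberty, 98.1 CPM (95.8 to 100.5) at puberty and 82.7 CPM (78.7 to 87.0) in the adult. It was read in 82.8% (74.6 to 89.1), 47.9% (38.7 to 57.2) and 34.1% (20.5 to 49.9) of cells. Lamc1 was thus highest before puberty in level and in share, and the pubertal and adult shares overlap within counting error.

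The make-up of the alpha chains changed between stages when lengths were taken into account. At pre-puberty Lama4 gave 56.0% and Lama2 39.8% of the summed alpha RPKM. At puberty Lama5 gave 34.6% and Lama1 31.6%, but Lama1 led with 42.9% against 26.0% when the top cell of each gene was left out. In the adult Lama3 gave 64.7% and Lama1 22.6%, or 73.9% and 13.1% without the top cells. No stage thus shared its leading alpha chain with another.

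**Figure D2:**
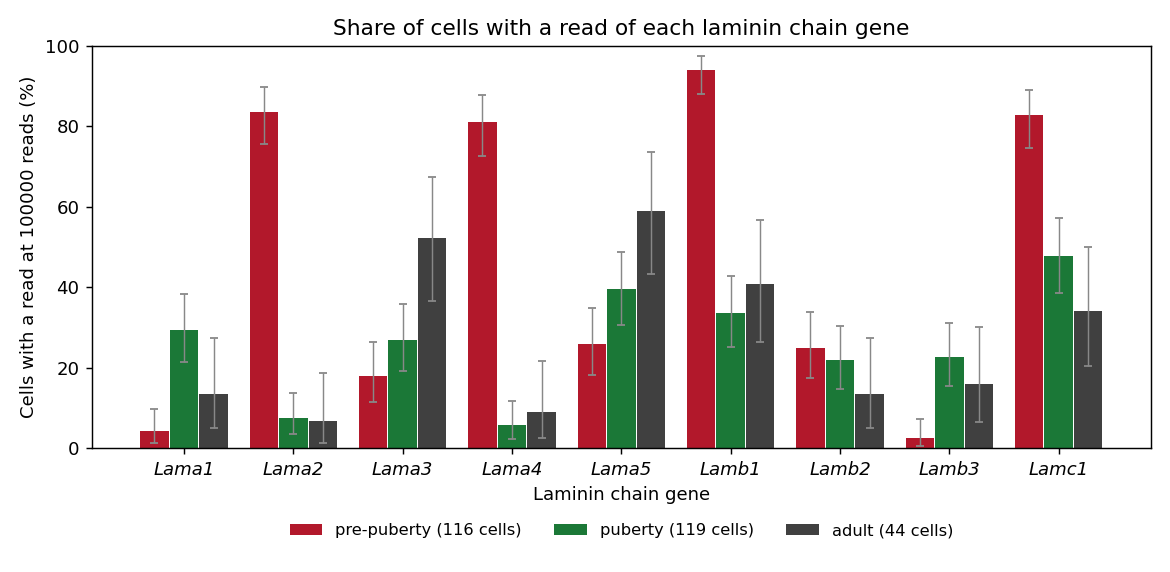
Percent of cells with a read of each laminin chain gene after thinning to 100000 reads (vertical axis), at pre-puberty (red, 116 cells), puberty (green, 119) and adulthood (grey, 44), with exact 95% binomial intervals. Lama2, Lama4, Lamb1 and Lamc1 are read in 81.0% to 94.0% of pre-pubertal cells, and none of the 9 chains passes 59.1% at the later stages.

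Without thinning the same genes led at pre-puberty, with Lama2 in 90.5%, Lama4 in 86.2%, Lamb1 in 95.7% and Lamc1 in 93.1% of cells. At puberty the unthinned shares reached 62.2% for Lamc1, 53.8% for Lama5 and 51.3% for Lamb1, and in the adult 77.3% for Lama5 and 56.8% for Lamb1. The order of genes within a stage was affected by depth for low genes, as the pubertal share of Lamb3 rose from 22.7% to 39.5%.

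Changes between stages are log2 ratios of levels to which 5 CPM had been added, so that ratios of low genes come out too small. A gene was called past 2-fold when it reached 10 CPM in either stage. From puberty to pre-puberty, 4 of the 9 chains were higher at pre-puberty: Lama2 by 4.97 on the log2 scale (counting interval 4.87 to 5.06), Lama4 by 3.74 (3.66 to 3.82), Lamb1 by 2.13 (2.08 to 2.17) and Lamc1 by 1.98 (1.92 to 2.03). Of all 9868 genes compared, 21.4% were higher by this rule. The chains Lama5 (-2.05), Lama1 (-2.01), Lamb3 (-1.86) and Lama3 (-1.34) were lower at pre-puberty, and 24.0% of all genes were. Lamb2, at 0.99, lay just inside 2-fold, and fell to 0.46 without the top cells. The median of the 9 was 0.99, beside -0.12 over all genes compared, but it averages over chains that moved in opposite directions.

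Against the adult, 5 chains were higher at pre-puberty, Lama4 by 5.29 (5.11 to 5.46), Lama2 by 4.31 (4.17 to 4.46), Lamb2 by 2.51 (2.29 to 2.71), Lamc1 by 2.21 (2.12 to 2.30) and Lamb1 by 1.20 (1.14 to 1.26), beside 31.7% of 9749 genes. Lama3 (-4.10), Lamb3 (-2.36) and Lama1 (-2.27) were lower, beside 28.9% of genes, and Lama5 lay between at -0.57. The median of the 9 chains was 1.20, beside 0.03 over all genes. Both comparisons use the same pre-pubertal cells, so their overlap was fixed in part by the design. Lama2, Lama4, Lamb1 and Lamc1 were higher at pre-puberty in each of them, also without the top cell of each gene, where their log2 ratios over the adult were 5.18, 5.85, 1.88 and 2.75.

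Between puberty and adulthood fewer chains differed. Lama4 (1.55), Lamb2 (1.52) and Lama5 (1.48) were higher at puberty, beside 28.4% of 9460 genes, and Lama3 was lower (-2.76), beside 20.6%. These shares of the 9 chains are near the shares over all genes. Without the top cell of each gene Lama5 came to 0.79, inside 2-fold, and Lama1 went from -0.26 to 1.08, while Lama3 (-2.35), Lamb2 (1.59) and Lama4 (1.21) stayed past it. Without the cells that had 5 or more fibroblast markers Lama4 turned to -0.55 and Lamb2 came to 0.91, inside 2-fold, while Lama2 (-1.35) and Lamb1 (-1.33) passed 2-fold lower at puberty, which left 1 chain higher and 3 lower. Over the 9 chains the median was -0.26, beside 0.10 over all genes.

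Pre-pubertal cells numbered 1 to 37, of which 12 passed, were deeper (median 937290 reads) than the 104 from 38 on (283474 reads), a division that no label names. Lama2 stood at 231.6 CPM in the first block and 526.6 CPM in the second, Lama4 at 200.8 and 462.1, and Lamb1 at 378.3 and 687.6, while Lamc1 was 396.9 and 402.9. The shares of cells were 75.0% and 84.6% for Lama2, 66.7% and 82.7% for Lama4, 83.3% and 95.2% for Lamb1 and 75.0% and 83.7% for Lamc1. In each block these 4 genes were above their pubertal and adult levels. Cell 1, however, held 62.6% of the Lama2 and 44.5% of the Lamb1 reads of the first block. Without it Lama2 was 97.5 CPM and Lamb1 236.3 CPM. The latter was below the adult level of 261.7 CPM, but above the 154.2 CPM left in the adult without its own top cell. The first block had no Lama1 read in 12 cells, with a limit of 0.286 CPM.

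A cell can assemble a trimer only from chains it makes itself, so co-reading of the chains of known trimers in the same thinned cell was counted. Reads of Lama2, Lamb1 and Lamc1, the chains of laminin-211, were found together in 76 of the 116 cells before puberty (65.5%, 56.1 to 74.1), in 7 of 119 at puberty (5.88%, 2.40 to 11.7) and in 2 of 44 in adulthood (4.55%, 0.555 to 15.5). For Lama4, Lamb1 and Lamc1, the chains of laminin-411, the counts were 75 (64.7%, 55.2 to 73.3), 5 (4.20%, 1.38 to 9.53) and 2 (4.55%, 0.555 to 15.5). Without cells that had 5 or more fibroblast markers each of these combinations was read in 0.909% of pubertal cells. Lama2 and Lama4 were read together in 81 pre-pubertal cells, so most pre-pubertal cells carried both alpha chains. That is 83.5% of the cells with Lama2 and 86.2% of those with Lama4. Over all pre-pubertal cells Lama4 was read in 81.0% and Lama2 in 83.6%, so the co-reading is near what the single shares give.

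The combination Lama5, Lamb1 and Lamc1 (laminin-511) was read in 19.0% (12.3 to 27.3), 9.24% (4.71 to 15.9) and 6.82% (1.43 to 18.7) of cells at the 3 stages. Lama1, Lamb1 and Lamc1 (laminin-111) were read together in 3.45% (0.947 to 8.59), 12.6% (7.23 to 19.9) and 2.27% (0.058 to 12.0). Lama3 and Lamb3, an alpha and a beta chain that join each other, were read together in 2 cells before puberty (1.72%, 0.210 to 6.09), in 10 at puberty (8.40%, 4.10 to 14.9) and in 5 in adulthood (11.4%, 3.79 to 24.6). No adult cell had a read of Lama4, Lamb2 and Lamc1 together, which allows a share of up to 6.82%, and without thinning 1 adult cell did.

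At least 1 of the 8 trimers counted, all with Lamc1, had all its chains read in 76.7% (68.0 to 84.1) of pre-pubertal, 24.4% (17.0 to 33.1) of pubertal and 15.9% (6.64 to 30.1) of adult cells. The median cell had reads of 4 of the 9 chains at pre-puberty and of 2 at each later stage. Every pre-pubertal cell had at least 1 chain, while 16 of 119 pubertal and 3 of 44 adult cells had none. No alpha chain was read in 2.59%, 31.1% and 20.5% of cells. A missing read at this depth does not show that the chain was absent.

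**Figure D3:**
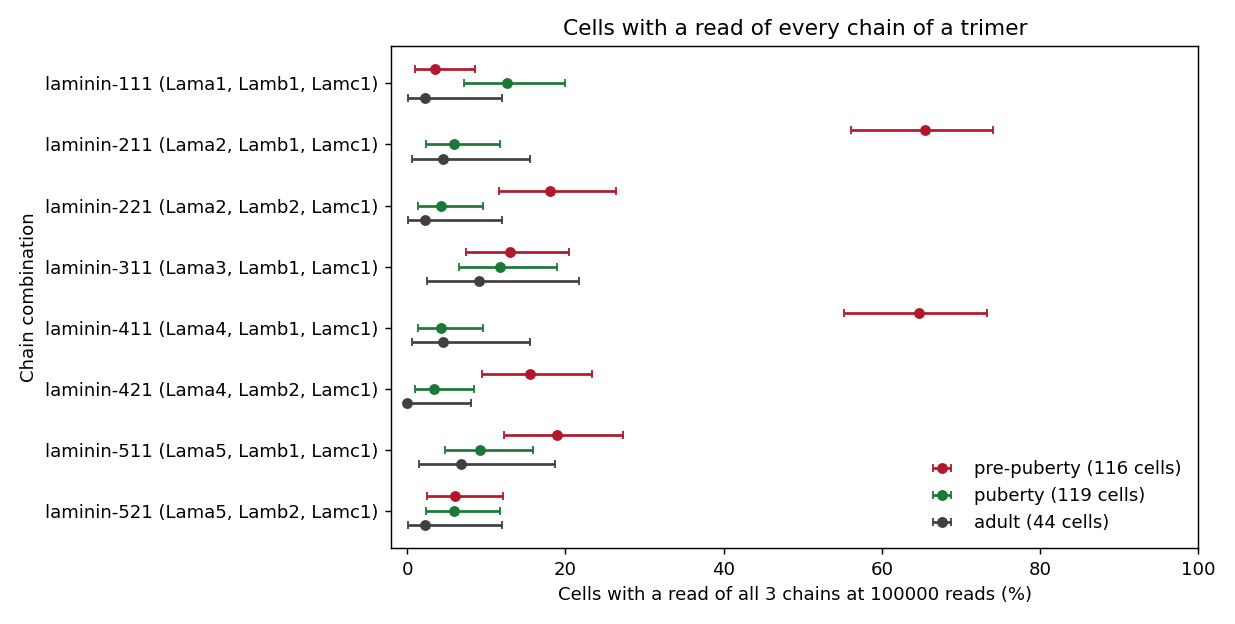
Percent of cells with a read of all 3 chains of each of 8 laminin trimers after thinning to 100000 reads (horizontal axis), at pre-puberty (red, 116 cells), puberty (green, 119) and adulthood (grey, 44), with exact 95% binomial intervals. Laminin-211 and laminin-411 lie at 65.5% and 64.7% of pre-pubertal cells, and no combination passes 12.6% at puberty or 9.09% in the adult.

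Cells were then grouped by keratins, with 40 RPKM in the cell as the threshold for Krt14, a keratin of basal cells, and for Krt8 or Krt18, keratins of luminal cells. These classes are ranges, not cell types, and at puberty 4 cells lay within 2-fold of the threshold for Krt14, 9 for Krt8 and 6 for Krt18 (5, 7 and 6 in the adult, 6, 1 and 3 at pre-puberty). At pre-puberty 97 of 116 cells had neither keratin, 10 had Krt14 only, 2 had Krt8 or Krt18 only and 7 had both. At puberty 5 cells had Krt14 only, 80 had Krt8 or Krt18 only, 24 both and 10 neither, and in the adult the numbers were 5, 22, 14 and 3.

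**Figure D4:**
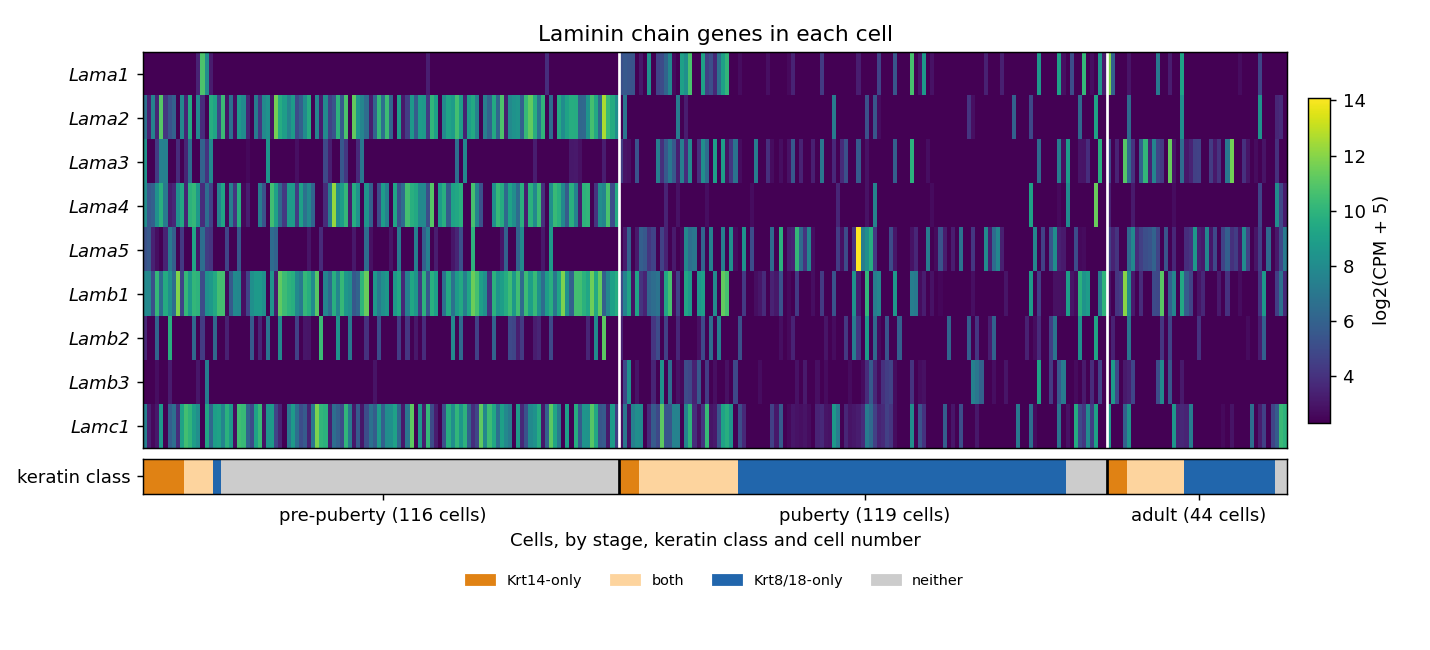
Level of each laminin chain gene as log2(CPM + 5) (colour) in each of the 279 cells (columns), ordered by stage and keratin class (lower bar: Krt14 only in orange, both in pale orange, Krt8 or Krt18 only in blue, neither in grey). Pre-pubertal cells show Lama2, Lama4, Lamb1 and Lamc1 in all keratin classes, and pubertal cells show Lama1 and Lamc1 mostly on the left, where Krt14 is present.

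Within pre-puberty the 4 main chains were read in most cells with and without Krt14, and their pooled levels in the 17 Krt14-positive cells rested on few cells. Lama4 was read in 80.4% (71.1 to 87.8) of the 97 cells with neither keratin and in 88.2% of the 17 Krt14-positive cells, at 424.5 and 257.5 CPM, and Lamb1 in 92.8% (85.7 to 97.0) and 100%. Lama2 stood at 498.4 CPM in the cells with neither keratin and 220.6 CPM in the Krt14-positive ones, and Lamc1 at 428.1 and 251.7 CPM. Without the top cell of the Krt14-positive class Lama2 was 119.4 CPM and Lamc1 160.0 CPM there. Lamc1 differed within that class, at 90.2 CPM in the 10 cells with Krt14 only and 629.3 CPM in the 7 with both keratins. Cell 59 held 54.4% of the Lamc1 reads of those 7. Without it 371.7 CPM remained, below the 428.1 CPM of the cells with neither keratin. The reads of Lama1 and Lamb3, by contrast, lay almost wholly in the Krt14-positive cells. Lama1 had 656 of its 661 reads there, 585 of them in cell 119, and Lamb3 43 of its 44. Lama3 was read in 9 of 17 Krt14-positive cells and 12 of 97 with neither keratin (12.4%, 6.56 to 20.6). The 2 cells with Krt8 or Krt18 only had Lama2, Lamb1 and Lamc1, and no read of Lama1, Lama3, Lama5 or Lamb3.

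In the 5 pubertal cells with Krt14 only, Lamb1 stood at 2.54, 28.2, 180.2, 580.4 and 585.8 CPM, and Lamc1 at 2.01, 2.27, 120.1, 176.8 and 279.1 CPM. Lama1 was 0, 32.2, 36.4, 38.5 and 43.1 CPM, and Lama4 had no read in any of the 5. The highest Lamb1 and the highest Lamc1 were in different cells. Compared with the 80 cells with Krt8 or Krt18 only, summed reads put 4 chains higher in the Krt14-only cells, Lamb1 (2.44), Lamc1 (2.25), Lamb3 (2.20) and Lama2 (1.48), beside 21.1% of 8662 genes. Lama5 (-2.98), Lama4 (-1.74) and Lamb2, with 3 reads or 0.734 CPM (0.151 to 2.14) against 18.0 CPM, were lower, beside 51.7%. Lama4 had no read in the Krt14-only cells. By the floor of 3 counts over that class, its pooled level was at least 16.0-fold higher in the others. Without cell 120, which held 68.8% of the reads there, the bound was 5.07-fold. Both bounds cover reads, not cells. Lama4 was read in only 4 of the 80 thinned cells, so 5 cells without it set no bound on a difference between the classes. The median of the 9 chains was -0.06, also with Lama4 at its bound, beside -1.16 over all genes. Cell 55 held every Lama2 read of the class and cell 63 held 93.1% of the Lamb3 reads, and without the top cells Lama2 turned to -0.63 and Lamb3 to -0.28.

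In the 5 adult cells with Krt14 only, Lamb1 was 0, 2.99, 12.3, 15.0 and 4149 CPM, Lama3 was 0, 0, 6.13, 23.9 and 2030 CPM, and Lama1 was 0, 0, 0, 59.8 and 3785 CPM. A single cell thus carried nearly all reads of each of these chains, cell 63 for Lamb1 and Lama3 and cell 22 for Lama1. Against the 22 adult cells with Krt8 or Krt18 only, 5 of the 6 chains that reached 10 CPM were higher, Lama1 (6.84), Lamb1 (5.52), Lamb3 (4.62), Lamc1 (2.03) and Lama3 (1.05), beside 24.1% of 7415 genes, and Lama5 was lower (-1.98), beside 58.4%. The other 3 chains were under 10 CPM in both classes, among them Lama2 with no read in the Krt14-only cells and 6.96 CPM in the others. The median of the 9 chains was 1.05, beside -1.72 over all genes. Without the top cells the ratio was 2.18 for Lama1, 0.80 for Lamc1, 0.45 for Lamb1 and -0.05 for Lama3. A keratin threshold of 10 RPKM left cell 62 as the only adult cell with Krt14 only. The ratio of that cell over the other class was -0.03 for Lama1, 0.79 for Lamb1, -4.13 for Lamc1 and -5.75 for Lama3. Lamb3 had no read in the Krt8 or Krt18-only cells, so by the same floor its pooled level was at least 395-fold higher in the Krt14-only cells. This bound too covers reads and not cells. Without cell 27 the bound was 30.7-fold, and 9.17 of the 117.8 CPM of Lamb3 there remained. Cell 62 had no Lamb3 read.

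A wider class with all Krt14-positive cells, with or without Krt8 or Krt18, was added after these values were seen, since it holds 29 pubertal and 19 adult cells. At puberty Lama1 was read in 21 of 29 Krt14-positive cells (72.4%, 52.8 to 87.3) and 10 of 80 with Krt8 or Krt18 only (12.5%, 6.16 to 21.8), at 172.8 CPM (166.7 to 179.2) and 32.4 CPM (30.7 to 34.1). Lamc1 was read in 79.3% (60.3 to 92.0) and 35.0% (24.7 to 46.5), at 270.2 and 22.6 CPM. Lama3 was read in 58.6% (38.9 to 76.5) and 13.8% (7.07 to 23.3), and Lamb1 in 58.6% (38.9 to 76.5) and 21.2% (12.9 to 31.8). These 4 pairs of counting intervals do not overlap, while those of Lama5 (44.8% and 41.2%), Lamb2 (27.6% and 20.0%) and Lamb3 (34.5% and 20.0%) do. Those of Lama2 (6.90% and 6.25%) and Lama4 (3.45% and 5.00%) overlap too. No share over all genes was counted by this criterion, so the 4 chains cannot be set beside a background. The intervals cover counting error among cells of a pooled stage, and the classes were not tested against each other.

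By log2 ratio, Lamc1 (3.32), Lamb1 (2.47), Lama1 (2.25), Lama3 (1.80) and Lamb3 (1.32) were higher in the pubertal Krt14-positive cells, beside 21.8% of 9255 genes. Lama5 (-1.59) and Lama4 were lower, beside 25.4%, the latter with 3 reads in the 29 cells against 11.7 CPM in the others. The median of the 9 chains was 1.32, beside -0.11 over all genes. In the narrower Krt14-only class the ratio was -0.06 for Lama1 (30.8 against 32.4 CPM) and -0.56 for Lama3 (9.78 against 16.8 CPM). Neither was thus higher by pooled level there, although Lama1 was read in 4 and Lama3 in 3 of those 5 thinned cells. Lama5 in the Krt8 or Krt18-only cells fell from 142.7 to 58.8 CPM without cell 50, beside 44.0 CPM in the Krt14-positive cells. The 24 cells with both keratins, 20.2% of the pubertal cells, held 61.3% of all pubertal Lamc1 reads, 51.7% of Lama1, 42.6% of Lama3 and 39.6% of Lamb1. The 10 pubertal cells with neither keratin held 28.7% of Lama3 and 26.0% of Lamb1, and the top cells of Lama1 (number 37, 5 of 10 basal markers) and Lama3 (number 119, 7 of 10) were among them. The 80 cells with Krt8 or Krt18 only, 67.2% of the cells, held 89.2% of Lama5.

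In the adult, Krt14-positive cells had higher Lama1 (5.43), Lamb1 (4.78), Lamb3 (3.79), Lamc1 (1.82) and Lama2 (1.70), beside 33.5% of 8248 genes, and none of the 9 was lower by over 2-fold, beside 37.3%. Their median was 1.70, beside -0.14 over all genes. Lamb3 was read in 7 of 19 Krt14-positive cells (36.8%, 16.3 to 61.6) and in 0 of 22 others, which allows up to 13.6% by the limit of 3 counts. Its pooled level was at least 214-fold higher, or 123-fold without cell 27, where 36.8 CPM remained, and these bounds cover reads only. Lama3 was high in both classes, at 421.9 and 240.9 CPM, but 97.1% of the latter came from cell 28, and 7.53 CPM remained without it. Lama5 was read in 68.4% (43.5 to 87.4) and 54.5% (32.2 to 75.6), so both adult classes contained it. Lama2 rested on cell 58, without which the Krt14-positive level was 4.09 CPM, and Lama1 fell from 237.0 to 74.3 CPM without cell 22, beside 0.597 CPM in the other class. Lamc1 rested on cells 1, 22 and 52, with 336.2, 408.9 and 363.5 CPM, and no other Krt14-positive cell exceeded 57.7 CPM. In both classes most cells had no Lamc1 read, and the highest cell with Krt8 or Krt18 only, cell 9, had 152.4 CPM.

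**Figure D5:**
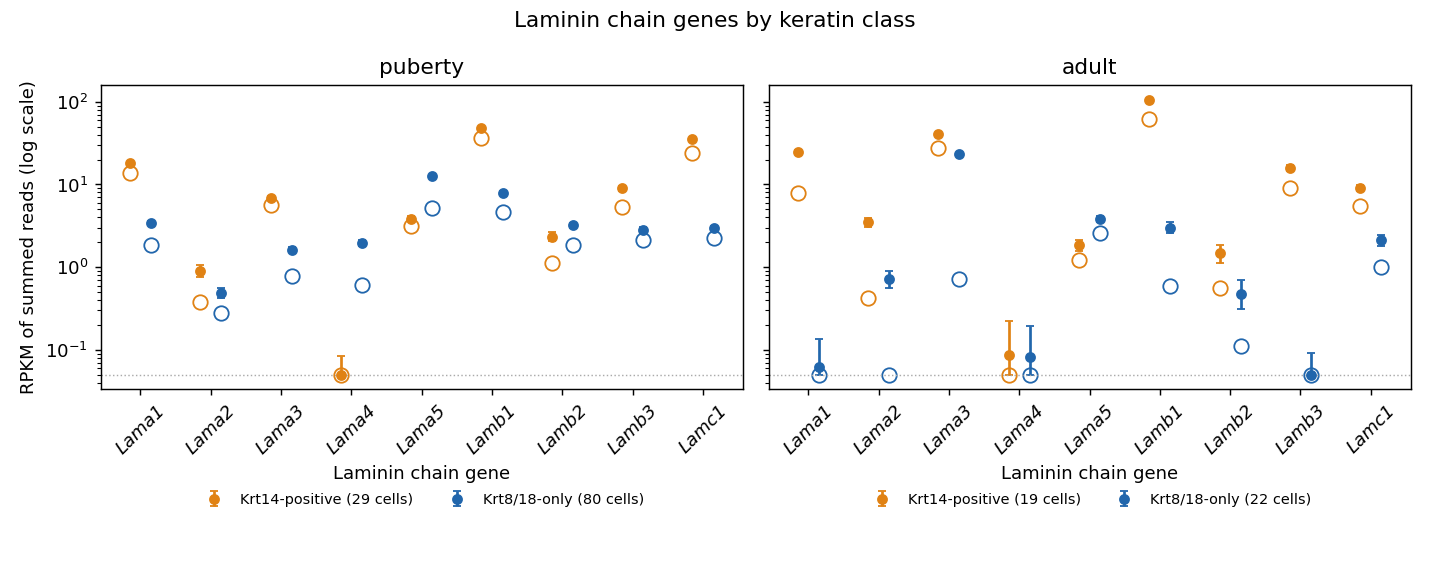
RPKM of the summed reads of each laminin chain gene (vertical axis, log scale) in Krt14-positive cells (orange) and cells with Krt8 or Krt18 only (blue), at puberty (29 and 80 cells, left) and in the adult (19 and 22 cells, right). Filled points carry exact 95% Poisson intervals, open circles leave out the top cell of each gene, and values under the dotted line at 0.05 are drawn on it. Lama1, Lamb1, Lamb3 and Lamc1 are higher in Krt14-positive cells in both panels, and Lama5 is higher in the other class.

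Co-reading of the chains differed between the classes too. At puberty Lama1, Lamb1 and Lamc1 were read together in 11 of 29 Krt14-positive cells (37.9%, 20.7 to 57.7) and 4 of 80 with Krt8 or Krt18 only (5.00%, 1.38 to 12.3). The counts for Lama3, Lamb1 and Lamc1 (laminin-311) were 9 of 29 (31.0%, 15.3 to 50.8) and 3 of 80 (3.75%, 0.780 to 10.6), and for Lama3 with Lamb3 they were 7 of 29 and 2 of 80. In the adult Lama3 and Lamb3 were read together in 5 of 19 Krt14-positive cells (26.3%, 9.15 to 51.2) and none of the 22 others. No complete set of any of the 8 trimers was read in those 22 thinned cells, which allows up to 13.6%, while without thinning the sets of laminin-311 and laminin-511 were each read in 3 of them. Among the thinned cells Lama5 was in 12, and Lamb1 and Lamc1 were together in 2.

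Genes for partners of laminins in the basement membrane were taken from a fixed list of 10, of which 9 reached 10 CPM at pre-puberty or puberty. Nid1 and Nid2, the nidogens that link laminin to collagen IV, stood at 1721 and 785.2 CPM at pre-puberty, 260.4 and 4.04 CPM at puberty and 455.3 and 9.79 CPM in the adult. Hspg2, the heparan sulphate proteoglycan perlecan, was 233.7, 9.47 and 14.5 CPM, and Col18a1 312.9, 82.8 and 96.4 CPM. These 4 were higher at pre-puberty than at puberty by over 2-fold, Npnt and Tinagl1 were lower, and Agrn, Col4a1 and Col4a2 lay between, beside 21.4% of all genes higher and 24.0% lower. All adult Nid2 reads came from cell 5, and 63.2% of the adult Nid1 reads from cell 36. Between the classes, 7 of 9 were higher in pubertal Krt14-positive cells, among them Col4a1 (1409 against 105.3 CPM), Col4a2 (965.9 against 85.8) and Col18a1 (209.4 against 7.60), and none was lower, beside 21.8% of all genes higher and 25.4% lower. Nid1 stood at 169.3 and 236.9 CPM, and cell 58, with Krt8 or Krt18 only, held 31.4% of all pubertal Nid1 reads.

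Of 12 laminin receptors and their partners, 11 reached 10 CPM at pre-puberty or puberty, and 6 were higher at pre-puberty and 2 lower, beside the same 21.4% and 24.0% of all genes. Itga6 and Itgb1, which pair into a laminin receptor of basal cells and Schwann cells, were read in 88.8% and 99.1% of cells before puberty, 79.0% and 84.9% at puberty and 79.5% and 70.5% in adulthood. Itgb1 was 1036, 428.0 and 630.3 CPM. Dag1, which encodes dystroglycan, was 165.4, 45.3 and 26.0 CPM. Itga3, an integrin chain of epithelia that binds laminin-511, was 3.71, 30.0 and 28.8 CPM at the 3 stages. Itga7, an integrin chain of muscle and nerve, was 43.0 CPM before puberty and 3.43 CPM at puberty, and adult cells had no read of it.

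Over the 116 pre-pubertal cells, Pearson's r on log2(CPM + 10) of thinned counts was 0.24 for Lama2 with Lama4, 0.20 for Lama2 with Lamb1, 0.19 for Lama4 with Lamb1 and 0.01 for Lamb1 with Lamc1. No label names the chip of a cell, and no p is given. At puberty Lama1 and Lama3 were read together in 23 of 119 thinned cells, Lama1 alone in 12 and Lama3 alone in 9. No gene among the 4857 compared reached r of 0.5 with Lama2, Lama4, Lamb1 or Lamc1. In the 44 adult cells genes among the most like Lama3 were Safb (r = 0.57) and Topbp1 (0.55), and those most like Lama5 were Il17re (0.61) and Tspan9 (0.54), among 3902 genes.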

How the data were processed

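The deposited files hold 1 table per cell with whole-number counts of read pairs per gene, which the authors made by mapping to mm10 with Subread 1.4.6 and assigning pairs to genes by featureCounts with the RefSeq annotation that comes with it (versions per the submitters' processing notes). How pairs that match several genes, and strand, were handled is not given in the sources used here. Without molecular identifiers, amplified copies count as reads. A table of the whole series held the same counts and was not used, and 0 columns belonged to no sample. Cells are named by the number in their title, which for 219 of the 346 differs from the number in the file's column name.

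Of 27179 genes, 25275 matched RefSeq GRCm38.p6 by Entrez number. The 1904 others, 15 mitochondrial and 119 ribosomal protein genes were removed, as in the study's methods, and cells with at least 100000 reads and 1500 genes were kept. Reads of a stage or keratin class were summed and scaled to CPM, or to RPKM with the deposited gene length. Ratios used 5 added CPM and a threshold of 2-fold. Each cell was thinned to 100000 reads with a fixed seed. No doublet caller was run, since the authors had inspected the chambers by microscope. No mouse is named for any cell, so no test was run. The 9 members and all lists were chosen with earlier results of these data known. Every member is named, and other genes come from the lists of chains, partners, receptors and markers, or are the 3 with the highest r with a member read in at least 50% of a stage's thinned cells, if r was at least 0.5. Some listed genes and the results that need them are not reported here. The calculations were tested on simulated data. Alternatives changed the added CPM, filter, genes counted, weight of cells, scaling (edgeR 4.0.16, TMM), thinning, detection, keratin threshold and cells left out. Python 3.11.15, NumPy 2.4.6, pandas 2.3.3, SciPy 1.17.1, matplotlib 3.10.9 and R 4.3.3 were used.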

Additional observations from a re-analysis of the deposited data

Results flagged for a closer look

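The 28 pre-pubertal, 17 pubertal and 22 adult cells below the coverage filter enter no comparison, but their summed reads also hold laminin chains. The 9 chains together came to 1754 CPM in the pre-pubertal cells below the filter, 327.3 CPM in the pubertal and 990.6 CPM in the adult ones, beside 1957, 533.8 and 832.3 CPM in the kept cells. Lama2 (306.1 CPM), Lama4 (270.5), Lamb1 (640.5) and Lamc1 (370.0) led in the pre-pubertal cells below the filter. The adult value includes 137 Lama1 reads that all came from 1 cell.

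The log2 ratio of Lama2 between Krt14-only cells and cells with Krt8 or Krt18 only was 1.48 at puberty and -1.26 in the adult, opposite directions at the 2 stages. The difference was not tested. The 90 pubertal reads of the Krt14-only class lay in 1 cell, and the 70 adult reads of the other class lay in 1 cell.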

How the results depend on the processing

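Among 135 alternative values of the summary counts and shares, 110 stayed close to the reported one and 25 moved. Among those of single chains, 289 stayed close, 229 moved and 13 turned. Counts of chains past 2-fold between stages, both directions together, were all within 1.5 times of the reported ones, but for puberty over adult 3 higher and 1 lower became 1 and 3 without cells that had 5 or more fibroblast markers. Between Krt14-only and Krt8 or Krt18-only cells, the 7 chains past 2-fold at any level became 4 (puberty) and 3 (adult) when the top cells were left out, and in the adult 3 with a keratin threshold of 10 RPKM and 2 with keratins called from any read. Single ratios turned at puberty for Lama2 (-0.63 without the top cells, -0.95 at 10 RPKM, -1.22 with any read) and Lamb3 (-0.28 without the top cells). In the adult they turned for Lama3 (-0.047 without the top cells, -5.75 at 10 RPKM, -0.77 with any read), Lama1 (-0.032 at 10 RPKM, -0.045 with any read), Lamc1 (-4.13 at 10 RPKM), Lama5 (0.32 with any read) and Lama2 (1.70 with every Krt14-positive cell). At 10 RPKM the adult Krt14-only class was cell 62 alone. Lama4, puberty over adult, turned to -0.55 without cells that had 5 or more fibroblast markers. Sign changes of ratios that lay inside 2-fold are not in this list. Among them are Lama1 (-0.06) and Lama3 (-0.56) at puberty, which were 2.25 and 1.80 with every Krt14-positive cell. Lama1, puberty over adult, without the top cells is another. The shares of cells with a combination moved with what counts as detection. With at least 5 reads, the laminin-211 chains were in 40.5% of pre-pubertal cells, the laminin-411 chains in 39.7%, 0.84% and 0% at the 3 stages, the laminin-511 chains in 7.76% and 3.36% at pre-puberty and puberty, and Lama3 with Lamb3 in 0%, 2.52% and 2.27%. Without thinning they were 81.0% and 78.4% for laminin-211 and laminin-411 at pre-puberty, 27.6%, 23.5% and 20.5% for laminin-511, and 18.5% for Lama3 with Lamb3 at puberty. Thinned to 50000 reads, laminin-411 was in 50.9% and laminin-511 in 11.2% of pre-pubertal cells and Lama3 with Lamb3 in 0%, which another seed gave too. Without cells with 5 or more fibroblast markers, laminin-211 and laminin-411 were each in 0.909% of pubertal cells. The cause was not tested where the setting does not give it. No paired analysis was possible because the cell numbers do not link cells of different stages and no result comes from a test. Depth limits the low chains, since a floor of 3 counts over a stage is 0.0737, 0.0438 and 0.160 CPM, and few cells limit the keratin classes.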
